A study of Homo sapiens with 3 samples.

Results

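The replication-dependent histone genes are the members described here: the 71 genes annotated as protein-coding whose symbols start with HIST1H, HIST2H, HIST3H or HIST4H, out of 58735 genes counted. They encode the linker histone H1 (6 genes), the core histones H2A (17 genes), H2B (18 genes), H3 (15 genes) and H4 (15 genes). On the human genome (GRCh38), 55 of them lie on chromosome 6 in the HIST1 cluster, 15 on chromosome 1 in the HIST2 and HIST3 clusters, and 1, HIST4H4, on chromosome 12.

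The counts came from RNA-seq of DU145, an androgen-independent line of human prostate cancer cells, in 1 library labelled control and 2 libraries labelled as PD-L1 knockdowns, Knockdown1 and Knockdown2. PD-L1 is an immune checkpoint ligand encoded by CD274, and the study asked which transcripts differ once it is depleted. Per the study's methods, stable lines were made with lentivirus that carried pLKO.1 with a PD-L1 shRNA or the empty pLKO.1 vector, and all were selected and kept in puromycin. The methods list the sequence of 1 hairpin, while their RNA-seq section numbers the knockdown cells sh1 and sh2, so whether the hairpins differed is not stated. The same section names the control only as DU145, so whether it carried the empty vector is not stated. Whether the 2 knockdown libraries came from separate lines is thus not stated, and the control has no replicate. The medium is DMEM with serum in the labels and EMEM in the methods, the series text names another line, BCPAP, and the control's count column is headed RBM45. CD274 had 204 counts in the control library and 213 and 224 in the libraries labelled Knockdown1 and Knockdown2. The targeted transcript was thus not lower. The paper reports that its stable lines, PD-L1 knockdown DU145 cells among them, were checked by Western blot. Such a blot shows protein, which these counts do not measure. The names control, Knockdown1 and Knockdown2 stand for what the labels say of each library and no more. Of the 5 prostate epithelial markers, KRT8, KRT18, EPCAM and CDH1 had 755 counts or more in every library and the basal keratin KRT5 had 0; these show an epithelial line and do not tell DU145 from other epithelial lines. Total counts were between 14733088 and 15786457, at which 3 counts, the most that a count of 0 allows, equal 0.190 to 0.204 CPM (each count scaled by the total of its library).

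Replication-dependent histone genes supply the histones that package newly copied DNA, and they are transcribed mainly in S phase. Most of their messages have no poly(A) tail: the 3′ end is cut shortly after a conserved stem-loop, which is bound by the stem-loop binding protein SLBP, and the cut is guided by the U7 snRNP. Some members also give polyadenylated messages, which use a poly(A) signal downstream of the stem-loop or a spliced 3′ end and are found in cells that have stopped dividing or differentiated. These libraries were enriched for mRNA with oligo(dT) beads, which hold poly(A) tails, so a member's count here is not a measure of its whole message. In bulk RNA, fewer cells in S phase and less histone message per cell cannot be told apart.

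The stem-loop sequences are shown first because they are what sets the normal 3′ end of these messages. A stem of 6 paired bases on each side of a loop of 4 bases was looked for, with the family's pattern of bases fixed in advance. It was found in the annotated transcripts (GENCODE release 29) of 32 of the 71 members, in 6 forms. It started 22 to 67 bases after the stop codon. Forms outside the pattern could not be found, so the likeness of the 6 forms is partly set by the search. The lines below give 1 or 2 members of each form, read in the direction of the message as DNA letters, with the stem and loop in capitals.
HIST1H2AC: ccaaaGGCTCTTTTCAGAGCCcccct
HIST2H2BE: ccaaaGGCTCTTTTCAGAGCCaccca
HIST1H2BD: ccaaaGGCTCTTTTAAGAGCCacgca
HIST1H4H: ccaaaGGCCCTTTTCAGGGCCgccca
HIST1H4I: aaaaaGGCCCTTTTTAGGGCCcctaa
HIST1H2AG: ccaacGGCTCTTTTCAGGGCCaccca
HIST1H3E: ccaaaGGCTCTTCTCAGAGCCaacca
The form of HIST1H2AC and HIST2H2BE was found in 17 members that encode H2A, H2B or H3, and that of HIST1H2BD in 5 members that encode H2B or H3. The forms of HIST1H4H and HIST1H4I were found in 5 and 3 members, all of which encode H4. The forms of HIST1H2AG and HIST1H3E were found in 1 member each. The stem and loop of HIST1H2AC lie on the plus strand at chr6:26124669-26124684, those of HIST2H2BE on the minus strand at chr1:149886188-149886203 and those of HIST1H4I on the plus strand at chr6:27139654-27139669, all in 3′ untranslated exon sequence of GRCh38. The models of 33 members hold the coding sequence only, so no stem-loop could be looked for in them. The stem-loop counted for HIST1H2BN lies at chr6:27865778-27865793, 30 bases after the end of HIST1H2AL, which is 1 of these 33 members. In HIST1H2BJ, HIST1H3J, HIST1H1E, HIST1H1T, HIST1H4C and HIST1H2BA, whose models hold untranslated bases, none was found.

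Most members were scarcely counted, and a few were abundant. Of the 71 members, 56 had a count in at least 1 library, 35 had a count in every library, and 15 had 0 in all 3 libraries. A count of 0 here allows up to 3 counts in a library and does not show that the gene is silent. The median member had a mean of 2.67 counts per library, whereas the median over all 19951 protein-coding genes was 122 counts. The share of members at 0 in all libraries, 21.1%, was close to the 19.1% of all protein-coding genes. Only 10 members had a mean of at least 100 counts and only 19 a mean of at least 20 counts. The 34 members whose counts in the 3 libraries added up to 10 or more entered the test, and the other 37 did not.

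**Figure D1:**
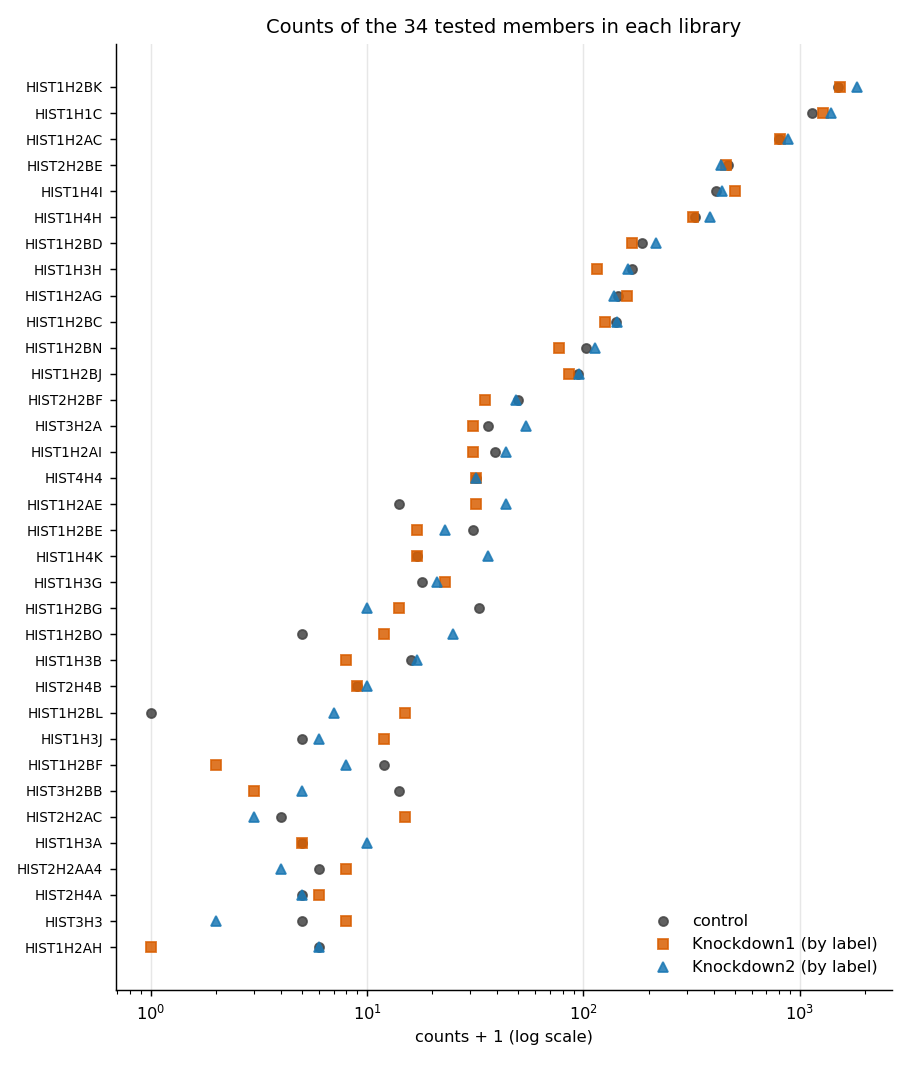
Counts + 1 on a log axis for each of the 34 tested members (rows, ordered by mean count) in the control library (circles) and in the Knockdown1 (squares) and Knockdown2 (triangles) libraries. The 3 libraries lie close together for the well counted members at the top, from 1507 to 1842 counts for HIST1H2BK, and spread apart below about 20 counts.

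Levels of different members were compared per length, as the deposited FPKM (fragments scaled to the gene's listed length and to the size of the library). HIST1H2BK, a gene for H2B (ENSG00000197903, chr6:27146418-27146798), was highest: it had 1507 counts in the control library and 1542 and 1842 in the Knockdown1 and Knockdown2 libraries, an FPKM of 266, 274 and 306. HIST1H1C, which encodes linker histone H1.2 (ENSG00000187837, chr6:26055787-26056428), came next with 1137, 1284 and 1394 counts and an FPKM of 119, 135 and 137. HIST1H2AC, a gene for H2A (ENSG00000180573, chr6:26124145-26139116), had 805, 810 and 878 counts and an FPKM of 32.5, 32.9 and 33.3. The ranges of these 3 members over the libraries did not overlap each other. HIST1H4I, a gene for H4 (ENSG00000276180), followed with an FPKM of 21.2, 26.3 and 21.3, also a range of its own. Below it the ranges of HIST1H2BD (12.9 to 15.6) and HIST2H2BE (12.5 to 14.3), both genes for H2B, overlapped, as did those of HIST1H2BC (10.1 to 11.3) and HIST1H4H (9.98 to 11.2). HIST1H3H, the highest member that encodes H3, ranged from 6.29 to 9.09 and overlapped HIST1H2BJ (6.05 to 6.59). The remaining members of the highest 15 were HIST1H2AI, HIST1H4K, HIST1H2AG, HIST1H2AE and HIST3H2A, with a mean FPKM of 4.84 to 2.88 and ranges that overlapped from each one to the next. In all, 19 members had a mean FPKM above 1.

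The level of HIST1H2BK carries an uncertainty of sequence. Of its 31-base words, 86.3% occur in another annotated gene, most often in H2BFS on chromosome 21, which is listed under 2 identifiers and had 6 counts at most under either of them. How the counting treated reads that match several genes is not stated. HIST1H1C shared only 0.817% of its words and HIST1H2AC 1.80%, so their counts stand on sequence of their own. HIST1H4K shared 100% of its words with HIST1H4J, and its counts could belong to either. In total, 17 members shared at least 50% of their words with another gene, among them the near-identical copies HIST2H2AA3 and HIST2H2AA4, HIST2H4A and HIST2H4B, and HIST2H3A and HIST2H3C. HIST1H2BN overlapped exons of HIST1H2AL on the same strand. HIST2H2BF overlapped FCGR1A, and HIST1H2BE overlapped AL353759.1, on the other strand, and whether the counting used the strand is not stated.

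**Figure D2:**
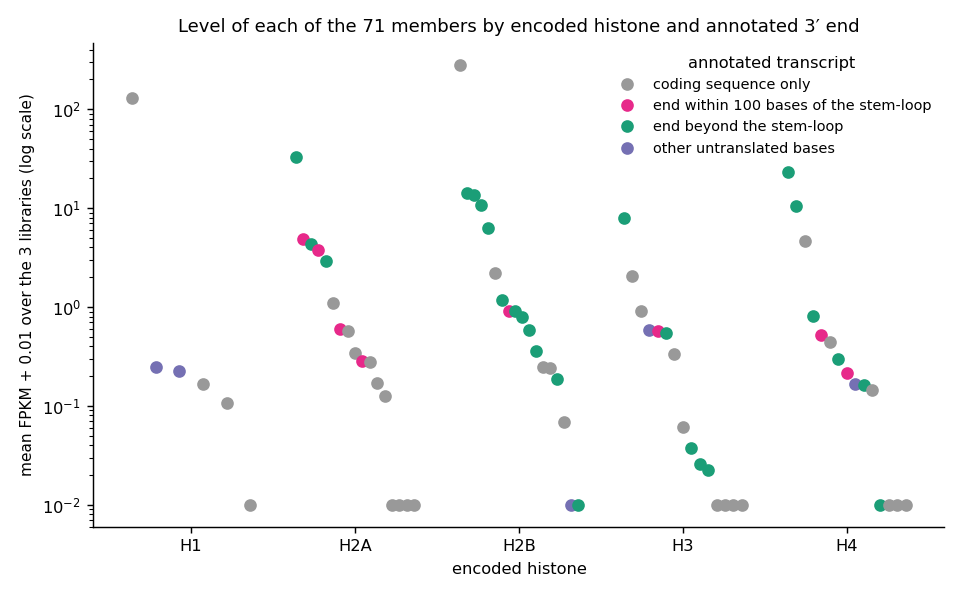
Mean FPKM + 0.01 over the 3 libraries on a log axis for each of the 71 members, grouped by the histone they encode and ordered from high to low within it. Colours mark the annotated 3′ end: coding sequence only (grey), an end within 100 bases of the stem-loop (pink), an end beyond the stem-loop (green), or other untranslated bases (violet); a point at 0.01 is a member at 0 in all libraries. For H1 a single member, HIST1H1C, stands at a mean FPKM of 131 and the rest lie below 1; HIST1H2BK leads H2B and all members at 282.

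Each histone class was carried by few members. The H1 genes had 1141, 1293 and 1404 counts in the control library and the Knockdown1 and Knockdown2 libraries, and all but 4, 9 and 10 of these were HIST1H1C. For H2A, 13 of 17 genes were counted and HIST1H2AC was the highest. H2B had the most counts, 2638, 2542 and 2959, with 16 of 18 genes counted and HIST1H2BK, HIST2H2BE, HIST1H2BD and HIST1H2BC each at a mean of at least 100. For H3 the sums were 214, 171 and 215 counts, of which HIST1H3H had 167, 115 and 160. For H4 they were 800, 887 and 907 counts, most of them from HIST1H4I (407, 503 and 435) and HIST1H4H (326, 319 and 382). These sums add genes of unequal length and are not amounts of histone.

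Annotated 3′ ends and levels were set side by side. In 25 members an annotated transcript runs over 100 bases past the stem-loop or has another spliced end with a poly(A) signal; 23 of these were counted, 20 were tested, and their median mean FPKM was 0.795. In the 8 members whose transcripts end within 100 bases of the stem-loop, 5 were tested and the median was 0.575. Of the 33 members annotated as coding sequence only, 8 were tested and the median was 0.135. The highest 2 members, HIST1H2BK and HIST1H1C, belong to this last group, so the annotated 3′ end did not mark every abundant member. Annotated ends come largely from sequenced cDNA of other samples, which may itself have been selected for poly(A), and the part this plays was not tested. Being counted or tested depends on raw counts. The listed lengths were 297 to 681 bases for coding sequence only and 834 to 5477 for ends beyond the stem-loop. Reads from untranslated bases that a model leaves out are not counted for that member. The part of model length was not tested.

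Of the members, 5 are listed here as having known polyadenylated forms: HIST1H1C, HIST1H2AC, HIST1H2BD, HIST1H2BK and HIST2H2BE. These are the 3 highest by FPKM and the fifth and sixth. Together they had 4101, 4257 and 4761 counts, which is 70.2%, 71.2% and 71.4% of all member counts in the control library and the Knockdown1 and Knockdown2 libraries. The list was chosen with earlier results of these data known, so these ranks and shares are no test of it. HIST1H2AC and HIST2H2BE, whose stem-loops are printed above, have transcripts that run 1128 and 1729 bases past it and end with a poly(A) signal (AATAAA or ATTAAA within the last 50 bases). The other 66 members shared 1740, 1722 and 1905 counts.

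Beside the members, other RNAs that lack poly(A) tails were few in these counts. Of 17 such rows (spliceosomal, telomerase, RNase P, RNase MRP, 7SK and signal recognition particle RNAs and a small nucleolar RNA), 11 had 0 in every library, 6 had a count in at least 1, and 2 were tested. RN7SL2, a signal recognition particle RNA, had 326, 325 and 512 of the 334, 328 and 520 counts of the list. RN7SK, RN7SL1, RMRP and RPPH1, which are abundant in cells, were all at 0. Short RNAs can also be lost by size selection, and how reads that match several genes were counted is not stated. The part of either in these zeros was not tested.

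**Figure D3:**
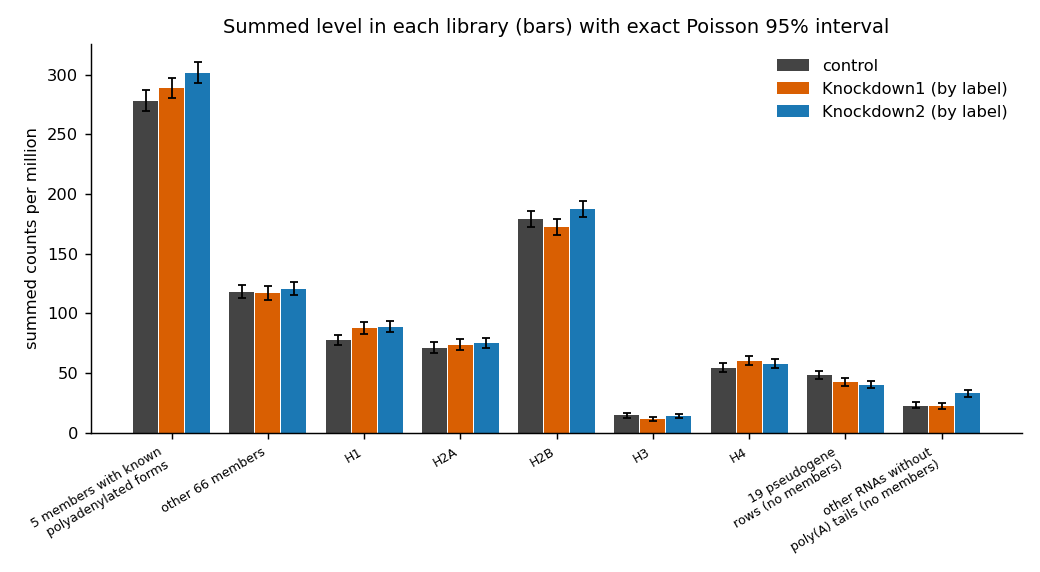
Summed CPM (bars, axis from 0) in the control library and the Knockdown1 and Knockdown2 libraries, with exact Poisson 95% intervals, for the 5 members with known polyadenylated forms, the other 66 members, the members by encoded histone, the 19 histone pseudogene rows and the other RNAs without poly(A) tails. The 5 members sum to 278, 289 and 302 CPM and the other 66 to 118, 117 and 121 CPM.

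The members' summed level was nearly the same in the 3 libraries. It was 5841 counts in the control library, 5979 in the Knockdown1 library and 6666 in the Knockdown2 library. As CPM this is 396 (95% Poisson interval 386 to 407), 406 (395 to 416) and 422 (412 to 433). The ratio to the control was 1.02 (95% counting interval 0.987 to 1.06) and 1.07 (1.03 to 1.10). The ratio of the Knockdown2 library exceeds counting error, and so does the ratio of the Knockdown2 to the Knockdown1 library, 1.04 (1.00 to 1.08, its lower bound 1.005). The other RNAs without poly(A) tails, nearly all of them RN7SL2 by count, had a summed ratio to the control of 0.982 (0.840 to 1.15) in the Knockdown1 and 1.45 (1.26 to 1.67) in the Knockdown2 library; their part in the members' sum was not tested. Such intervals compare libraries and cover counting error only, and the spread between control cultures was not measured.

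HIST1H2BK and HIST1H1C summed to 179, 192 and 205 CPM and the remaining 69 members to 217, 214 and 217 CPM. The ratio of the first sum to the control was 1.07 (1.01 to 1.13) and 1.14 (1.08 to 1.20). The 5 members listed with known polyadenylated forms, these 2 among them, had 1.04 (0.994 to 1.08) and 1.08 (1.04 to 1.13). The 66 members not on that list had 0.989 (0.925 to 1.06) and 1.02 (0.957 to 1.09). Within the last sum, the 22 members with an annotated end beyond the stem-loop had 1609, 1544 and 1673 counts, at 0.959 (0.894 to 1.03) and 0.970 (0.906 to 1.04). The 8 members that end within 100 bases of the stem-loop had 62, 94 and 109 counts, at 1.52 (1.09 to 2.12) and 1.64 (1.19 to 2.28), and HIST1H2AE and HIST1H2BL, described below, are among them. The 31 annotated as coding sequence only had 59, 64 and 115 counts, at 1.08 (0.749 to 1.57) and 1.82 (1.32 to 2.53), and HIST1H4K and HIST1H2BO are among them. These 2 sets are small, and the difference between sets was not tested. By encoded histone, the H1 genes were at 1.13 (1.05 to 1.23) and 1.15 (1.06 to 1.24). H2B was at 0.963 (0.912 to 1.02) and 1.05 (0.993 to 1.10), and H2A at 1.04 (0.951 to 1.13) and 1.05 (0.967 to 1.14). H4 was at 1.11 (1.01 to 1.22) and 1.06 (0.961 to 1.17), and H3 at 0.799 (0.649 to 0.981) and 0.938 (0.772 to 1.14). For H2B the libraries lay on opposite sides of the control, and for H1, H2A, H3 and H4 on the same side.

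No member passed an adjusted p of 0.05 in the comparison of the Knockdown1 and Knockdown2 libraries with the control by edgeR's quasi-likelihood test, adjusted over all 19849 genes tested, of which 0.353% passed. With edgeR 5 of the 34 tested members had an unadjusted p under 0.05, beside 11.7% of all tested genes; with DESeq2 0 passed the adjusted threshold and 1 had an unadjusted p under 0.05. At an unadjusted p under 0.05 with a change of over 2-fold (absolute log2 fold change above 1), 5 members passed, against 2.48% of all tested genes. Of these, 4 had a mean under 20 counts, and 4 of 15 tested members below that mean stand beside 6.4% of all tested genes below it. The rule passed 3 members as higher (HIST1H2AE, HIST1H2BO and HIST1H2BL), beside 1.54% of all tested genes, and 2 as lower (HIST1H2BG and HIST3H2BB), beside 0.942%. For all 5 the adjusted p from edgeR was 0.187 to 0.385. The median log2 fold change of the tested members was -0.0010 with 17 above and 17 below 0, beside a median of 0.0015 over all tested genes.

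The 10 members with a mean of at least 100 counts give the closest view of the comparison. None of them passed either rule, and the ratios of single libraries to the control ran from 0.688 to 1.24. Of the 10, 3 were above the control in both Knockdown libraries (HIST1H2BK, HIST1H1C and HIST1H2AC), 3 were below it in both (HIST2H2BE, HIST1H3H and HIST1H2BC), and 4 differed in sign. HIST1H1C had a change of 0.19 on the log2 scale (standard error, SE, 0.13, adjusted p = 0.597 from edgeR), with ratios of 1.13 (1.04 to 1.22) and 1.14 (1.06 to 1.24). HIST1H2BK had a change of 0.12 on the log2 scale (SE 0.13, adjusted p = 0.759) and HIST1H2AC one of 0.02 (SE 0.14, adjusted p = 0.969). HIST2H2BE, with 467, 455 and 432 counts, had a change of -0.12 on the log2 scale (SE 0.16, adjusted p = 0.826). Its ratio to the control lay below 1 beyond counting error in the Knockdown2 library alone, at 0.863 (0.756 to 0.986).

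Among members with a mean of at least 20 counts, the highest fitted changes belonged to HIST1H2AE, HIST1H4K, HIST3H2A, HIST1H1C and HIST1H4I, and the lowest to HIST1H2BE, HIST1H3H, HIST2H2BF, HIST1H2BN and HIST2H2BE. HIST1H4I had 407, 503 and 435 counts, with only the Knockdown1 library above the others, and a change of 0.16 on the log2 scale (SE 0.17). HIST1H3H had 167, 115 and 160 counts, with the same library below the others, and a change of -0.33 on the log2 scale (SE 0.23, adjusted p = 0.590). HIST1H4K had 16, 16 and 35 counts, so its change of 0.61 on the log2 scale (SE 0.57) came from 1 library, and with that library left out it was 0.01. HIST3H2A had 35, 30 and 53 counts, which also put the control between the Knockdown libraries. HIST1H2BE had 30, 16 and 22 counts, HIST2H2BF 49, 34 and 48, and HIST1H2BN 102, 76 and 112. In these 3 the Knockdown1 library was the lowest.

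**Figure D4:**
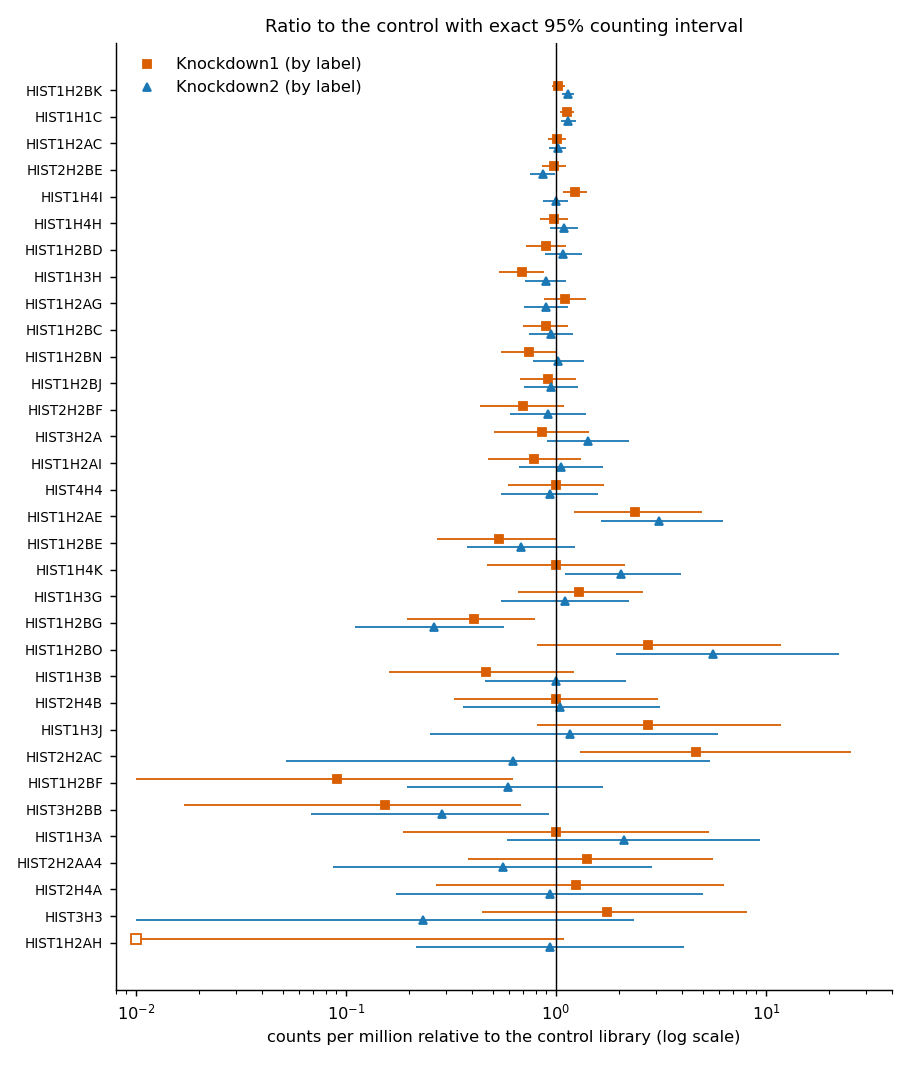
CPM relative to the control library on a log axis, with exact 95% counting intervals, for the 33 tested members that had a count in the control, in the Knockdown1 (squares) and Knockdown2 (triangles) libraries. The open square marks a count of 0, drawn at 0.01, and intervals that reach lower are drawn to 0.01. The intervals narrow towards the well counted members at the top and hold 1 for most members; HIST1H1C and HIST1H2AE lie above 1 and HIST1H2BG and HIST3H2BB below 1 in both libraries.

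The 5 members past the fold rule were all poorly counted. HIST1H2AE, a gene for H2A (ENSG00000277075), had 13 counts in the control library and 31 and 43 in the Knockdown1 and Knockdown2 libraries. Both libraries were above the control, by 2.38 (1.21 to 4.96) and 3.09 (1.63 to 6.26), with a change of 1.45 on the log2 scale (SE 0.54, adjusted p = 0.242 from edgeR). HIST1H2BG, a gene for H2B (ENSG00000273802), had 32, 13 and 9 counts. Its ratios were 0.406 (0.196 to 0.795) and 0.262 (0.110 to 0.563), with a change of -1.57 on the log2 scale (SE 0.59, adjusted p = 0.243). HIST1H2BO, also for H2B, had 4, 11 and 24 counts; only the second ratio, 5.60 (1.92 to 22.2), lay beyond counting error. HIST3H2BB, of the HIST3 cluster, had 13, 2 and 4 counts, and both ratios, 0.154 (0.0168 to 0.679) and 0.287 (0.0682 to 0.930), lay below 1. HIST1H2BL had 0, 14 and 6 counts; against the 3 counts that a 0 allows this is at least 4.67-fold higher in the Knockdown1 library and at least 1.87-fold in the Knockdown2 library; its fitted change is no bound. Under DESeq2 the rule passed 1 of the 5 members, HIST1H2BL.

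Many H2A and H2B genes lie back to back and share the stretch between their starts, so their counts were compared within pairs. By listed gene positions there were 11 such pairs of members, with 218 to 330 bases between the listed starts. Of these, 10 had a count. For models of coding sequence only, the listed start is that of the coding sequence. HIST1H2AK and HIST1H2BN are not among these pairs because their listed spans overlap. Their promoter windows (described below), on opposite strands, cover nearly the same bases. HIST1H2AK had 0 counts in every library, and HIST1H2BN had 102, 76 and 112. Within a pair the partners' mean counts often differed widely. HIST1H2BK had 1507, 1542 and 1842 counts and its partner HIST1H2AH had 5, 0 and 5. HIST2H2BE had 467, 455 and 432 counts and its partner HIST2H2AC had 3, 14 and 2. In both pairs the abundant partner, for H2B, is one of the 5 with known polyadenylated forms. The model of the other partner is coding sequence only in both pairs, but so is that of HIST1H2BK. HIST1H2AC was 6.13-fold above HIST1H2BC in mean counts, and HIST1H2AG 1.61-fold above HIST1H2BJ. Among the 10 counted pairs found by listed position, the H2B gene had the higher mean in 4 and the H2A gene in 6. Listed lengths differ within pairs, so these folds are of counts and not of levels per length.

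**Figure D5:**
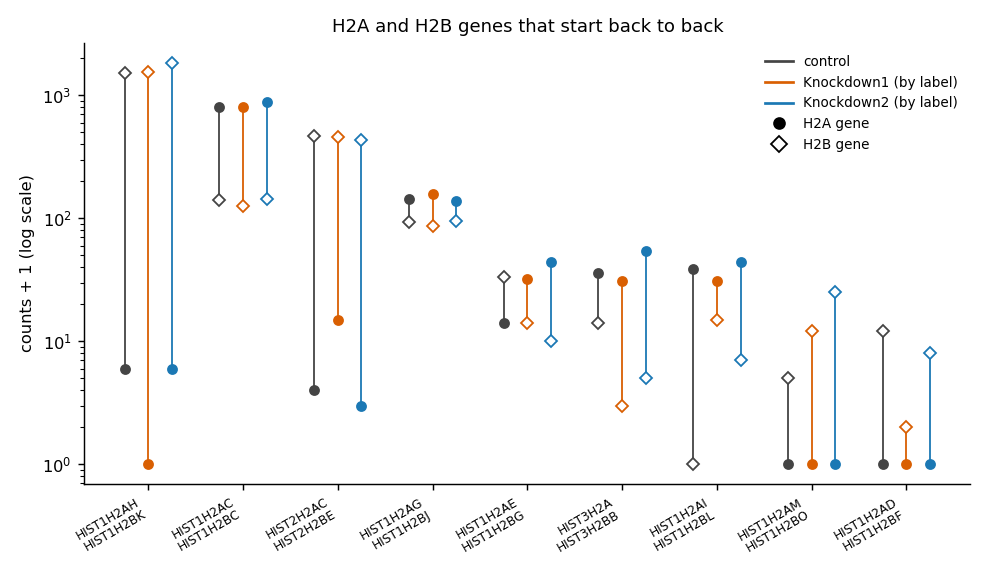
Counts + 1 on a log axis for 9 pairs of H2A (filled circles) and H2B (open diamonds) genes, back to back by listed positions. Each pair has at least 10 counts in sum. The control, Knockdown1 and Knockdown2 libraries are lines of 3 colours, from left to right in each pair. Partners are far apart for HIST1H2BK and HIST2H2BE and close for HIST1H2AG and HIST1H2BJ; for HIST1H2AE and HIST1H2BG the order of the partners in the control is opposite to that in the other libraries.

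HIST1H2AE and HIST1H2BG form 1 of these pairs, with 282 bases between their listed starts. They are the only pair in which 1 partner passed the fold rule as higher and the other as lower. In the control library HIST1H2BG had the more counts, 32 against 13, and in the Knockdown1 and Knockdown2 libraries HIST1H2AE had the more, 31 against 13 and 43 against 9. Their sum was 45, 44 and 52 counts. HIST1H2BG and HIST1H2AE shared 3.26% and 1.46% of their words with another gene, and no exon of one overlaps the other. The pair was singled out after its values were seen, and the difference between the partners was not tested.

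The stretch upstream of the members' starts carries letters that the rest of the genome's promoters carry less often. RefSeq promoters (GRCh38.p14, from 250 bases before to 50 after the start) were matched to 66 of the 71 members by symbol, strand and position, a different window for each, and were searched on both strands. TATAAA was found in 45 of 66 (68.2%), beside 11.5% of all 35116 promoters, and CCAAT in 56 of 66 (84.8%) beside 34.6%. ATTTGCAT, the octamer bound by POU2F1, was found in 11 of 16 H2A and 14 of 18 H2B promoters and in none of the 32 promoters of H1, H3 and H4 members, beside 1.77% of all promoters. CCAAT was in each matched promoter of the H1, H2A, H2B and H3 members and in 3 of 13 of the H4 members. In back-to-back pairs the windows can cover the same bases, so partners are not separate counts of a motif. The motifs are letters in a window and were not tested against the counts. HIST1H2BK held all 3, and HIST1H1C held CCAAT alone.

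Genes of the same pathway were compared between the same libraries. Of 14 genes for histone mRNA 3′ processing, all were tested and 0 passed either rule, with 1 at an unadjusted p under 0.05 by edgeR. SLBP, which binds the stem-loop, had 1766, 1759 and 1803 counts and a change of -0.03 on the log2 scale (SE 0.12). LSM11 of the U7 snRNP had 208, 231 and 255 counts, and ZNF473, which works with the same particle, had 239, 197 and 253. Of 6 genes for transcription of histone genes 0 passed either rule, and 3 had an unadjusted p under 0.05 (11.7% of all tested genes did): NPAT, POU2F1 and CCNE1. NPAT, the coactivator of histone genes in S phase, had 767, 644 and 615 counts and a change of -0.33 on the log2 scale (SE 0.15, adjusted p = 0.353 from edgeR). POU2F1, which binds the octamer of H2B promoters, had 1056, 883 and 842 counts and a change of -0.34 (SE 0.14, adjusted p = 0.290 from edgeR). CCNE1, for cyclin E1, whose kinase acts on NPAT, lay the other way with 145, 194 and 225 counts and a change of 0.48 (SE 0.22, adjusted p = 0.356 from edgeR). Summed over this list the ratio to the control was 0.939 (0.898 to 0.983) and 0.839 (0.802 to 0.878).

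Of 13 histone chaperones and 12 S phase genes (MCM, PCNA, RRM2, TYMS and others), 0 of either list passed either rule, and 1 of each had an unadjusted p under 0.05. The median log2 fold change was 0.03 for the chaperones and 0.02 for the S phase genes, and the S phase genes' summed ratio to the control was 1.06 (1.05 to 1.08) and 1.02 (1.00 to 1.03, its lower bound 1.0015). The share of cells in S phase was not measured. The S phase genes together had 35617, 37822 and 38776 counts, and the 71 members 5841, 5979 and 6666.

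Most replication-independent histones are made throughout the cell cycle from polyadenylated messages. Whether this holds for each gene listed here, H2AFX and CENPA among them, was not checked. Most of the listed genes were far better counted than the members. Of the 12 listed genes 11 were tested. Of these, 0 passed either rule, and 3 had an unadjusted p under 0.05 by edgeR, beside the same 11.7%. The fitted change was above 0 for 9 of the 11 and below 0 for 2, H2AFV (3708, 3581 and 3781 counts) and H2AFY (2808, 2782 and 2951 counts). H2AFZ, for the variant H2A.Z, had 3375, 3893 and 3942 counts, and H2AFX, for H2A.X, had 1559, 1788 and 1879. H3F3A and H3F3B, both for H3.3, had 2641, 2754 and 2864 and 3840, 4083 and 4406 counts. H1F0, a linker histone of resting and differentiated cells, had 2940, 3452 and 4105 counts, both libraries above the control, and a change of 0.31 on the log2 scale (SE 0.12, adjusted p = 0.242). The 12 genes summed to 1573, 1692 and 1713 CPM, beside 396, 406 and 422 CPM for the 71 members. Per length, the summed FPKM, as the mean of the 3 libraries, was 534 for the 12 genes and 572 for the members, of which HIST1H2BK and HIST1H1C made up 413.

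The Knockdown1 and Knockdown2 libraries differed from each other in the members about as often as from the control. The ratio of the second to the first lay beyond 95% counting error for 7 of the 34 tested members, 5 higher (HIST1H2BK, HIST1H3H, HIST1H4K, HIST3H2A and HIST1H2BN) and 2 lower (HIST1H4I and HIST2H2AC). Against the control 9 members lay beyond it in each library, 5 higher and 4 lower in the first and 6 higher and 3 lower in the second. Over all tested genes the shares beyond counting error were 26.3% between these libraries and 29.1% and 38.2% against the control. HIST1H2BK was at 1.12 (1.04 to 1.19) in the second relative to the first, and HIST1H4I at 0.807 (0.709 to 0.920). HIST1H1C was at 1.01 (0.939 to 1.09), and HIST1H2AC at 1.01 (0.919 to 1.11). Each of these ratios compares 1 library with 1 library and has no replicate.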

How the data were processed

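The authors deposited, for each library, raw counts of reads per gene and FPKM. Per the labels' processing notes they used Bowtie2 2.0.6, TopHat2 2.0.9, Cufflinks 2.1.1 and Cuffdiff 2.1.1; the counting tool, strand setting and treatment of reads with several matches are not given in the sources used here. Each deposited FPKM was checked to be the count over the listed length times 1 constant per library. Members, gene lists and the rule for named genes were chosen with earlier results of these data known. The rule took the 15 members with the highest mean FPKM, those past a threshold, among members with a mean count of 20 or more the 5 highest and 5 lowest changes, and the 5 with known polyadenylated forms; pair partners and other genes were added after their values were seen. Lists covered replication-independent histones, histone mRNA 3′ processing, histone gene transcription, chaperones, S phase genes, RNAs without poly(A) tails and prostate epithelial markers.

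Genes with at least 10 counts over the 3 libraries entered edgeR 4.0.16 (R 4.3.3; TMM, glmQLFit, glmQLFTest, Benjamini-Hochberg), 2 libraries against 1, which leaves 1 residual degree of freedom; DESeq2 1.42.0 was the alternative. P-values rest only on the spread between the Knockdown libraries, numbered 1 and 2 by the labels, pooled over genes. The fitted prior degrees of freedom were infinite, so a gene's own spread carried no weight. Each SE from edgeR was worked back from the p-value and the log2 fold change. The fit was tested on simulated data. Ratios have exact conditional 95% intervals and sums exact Poisson intervals, which cover counting error only. All 58735 identifiers were found in GENCODE release 29 (58690 at the same position, all 71 members among them), whose transcripts gave stem-loops and shared 31-base words.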

Additional observations from a re-analysis of the deposited data

Results flagged for a closer look

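Rows named as histone pseudogenes carry counts outside the comparison, above the 3 counts that a count of 0 allows. The 19 such rows, left out because they are not annotated as protein-coding, summed to 710 counts in the control library and to 621 and 635 in the Knockdown1 and Knockdown2 libraries, and 12 of them had a count. HIST2H2BC had 588, 480 and 518 of these and HIST2H2BD had 114, 127 and 107. Both lie in the HIST2 cluster on chromosome 1, where their annotated spans overlap each other. The summed ratio to the control was 0.874 (95% counting interval 0.784 to 0.975) and 0.835 (0.749 to 0.930). HIST2H2BC thus had more counts than HIST2H2BE, the most counted member of that cluster, with 467, 455 and 432. Per length the order was the other way, with a mean FPKM of 5.43 for HIST2H2BC and 13.6 for HIST2H2BE.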

How the results depend on the processing

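No member passed the adjusted threshold with DESeq2's Wald test, DESeq2 size factors or library totals in edgeR, or all genes with at least 1 count (56 members). The fold rule passed 5 members in edgeR under those settings and 1 (higher) with DESeq2. Of all genes, 492 passed it in the edgeR fit reported and 46 with DESeq2, and 70 and 6 passed the adjusted threshold. Without each Knockdown library in turn there was no test. The ratio of the summed share, 1.04, became 1.02 to 1.07; with protein-coding counts as denominator it was 1.03, with members sharing under 50% of their words 1.03, and without HIST1H2BK 1.03. The 15 highest members by level were the same 15 with the longest transcript as length. Of 132 values for 22 named members, 128 stayed on the same side of the adjusted threshold or, with a library left out, within 1 standard error. No member was near that threshold in the fit reported (lowest adjusted p 0.187 from edgeR), so staying on its side says little. Calls by the fold rule did not enter this count. The other 4 values moved further when a library was left out: HIST1H2BL to 1.95 and 3.03, HIST1H2BO to 1.13 and HIST1H4K to 0.01. The sign changed in 7 members when 1 library was left out; none of the 7 had passed a threshold. No paired analysis was possible because the control is 1 library and shares only 1 replicate number. With 2.67 counts for the median member, depth limits most of the list.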
